A study of Mus musculus with 4 samples.

Results

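FB5 cells are the fibroblasts that the study placed beneath the epithelium of the small intestine. They were chosen by their values above 0 for 6 marker genes (Sox6, Bmp7, Foxl1, Bmp5, Wnt5a and Wif1) in the single-cell library of LATS1/2 KO mice collected at week 1. A cell was taken as FB5 when at least 4 of these 6 genes were above 0 and fewer than 3 of 5 genes of another villus fibroblast, vFB3 (Tacr1, Adgrf5, Itga8, Slco2a1 and P2rx1), were above 0. The rule found 159 of 4108 cells, which was 3.87% with an exact binomial 95% interval of 3.30 to 4.51%.

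The study sorted Tomato+ stromal cells from the small intestine of adult C57BL/6J mice and profiled them with the 10x 3′ kit. The mice of this library carried the alleles Lats1 f/f and Lats2 f/f, PDGFRb-CreERT2 and a Cre-dependent tdTomato reporter. Tamoxifen-induced Cre was meant to mark and target cells that used the Pdgfrb promoter when tamoxifen was given. The sort held fibroblasts, smooth muscle cells and mural cells together. Deletion of Lats1 and Lats2 in each marked cell was not checked here. The 2 WT libraries and the KO library collected at week 2 were not analysed here, so no value below compares KO with WT. All levels come from 1 library with no replicate, cells are not replicates, and no test was made.

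Each level is a sum of unique molecular identifiers (UMIs, one per captured transcript) over cells, given as CPM (scaled to 1000000 UMIs in the same cells). Ratios compare the 159 FB5 cells with the other 3949 cells of the library, and every interval is an exact 95% interval that covers counting error only. FB5 cells held 2118677 UMIs in all, with 4706 to 27741 per cell and a median of 12851, against a median of 10628 in the other cells. The columns of the matrix are marked M or F by whether a UMI of Xist, the transcript of the inactive X chromosome, was seen in the cell. The mark is thus a detection of 1 transcript and not a label of an animal. How many mice this library holds was not known, so differences between marks and between animals cannot be told apart. FB5 cells were 70 of 1983 cells marked M (3.53%, 2.76 to 4.44%) and 89 of 2125 marked F (4.19%, 3.38 to 5.13%). M and F values are set side by side and are not replicates.

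Subepithelial fibroblasts, also called telocytes or subepithelial myofibroblasts, lie directly under the basement membrane of crypts and villi. They signal to the epithelium through BMP ligands, which favour differentiation, and through Wnt ligands and Wnt inhibitors. Fibroblasts deeper in the mucosa are known instead for BMP antagonists and R-spondins, which keep the crypt stem cells dividing. The LATS kinases phosphorylate the coactivators YAP and TAZ and keep them out of the nucleus, where they act with TEAD factors.

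The 6 rule genes are given as a description, because they chose the cells. Sox6, a SOX transcription factor, was at 284.1 CPM in FB5 cells and 5.74 CPM elsewhere, and was seen in 96.9% of FB5 cells. Bmp7, a BMP ligand, was at 255.3 and 4.30 CPM, and Bmp5, another BMP ligand, at 487.6 and 70.3 CPM. Wnt5a, a non-canonical Wnt ligand, was at 206.7 and 26.5 CPM. Wif1, a secreted Wnt inhibitor, was almost restricted to the chosen cells in these counts, with 155 UMIs there and 3 in all the other cells. The commonest combination was Sox6, Bmp7, Bmp5 and Wnt5a, in 67 cells, followed by these 4 with Wif1 in 47 cells, and all 6 genes were seen in 12 cells.

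Foxl1, a forkhead factor used as a marker of subepithelial telocytes, contributed least to the choice. It was at 17.0 CPM in FB5 cells and 4.89 CPM elsewhere, and was seen in 20.1% of FB5 cells. It was as high or higher in cells that the rule did not choose: 24.2 CPM in a cluster led by Actc1, Cnn1 and Actg2 and 17.2 CPM in a cluster led by Slco2a1, Itga8 and P2rx1. These clusters held only 75 and 45 cells that the rule did not choose, of which 18.7% and 20% held a Foxl1 UMI. In a cluster led by Cd81, Cilp and Ackr4, Foxl1 was at 0.117 CPM and in 0.146% of cells, at a median depth of 12101 UMIs. Free RNA was not estimated. The chosen cells are thus FB5 by Sox6, Bmp7, Bmp5 and Wnt5a more than by Foxl1.

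Of all cells, 1816 had none of the 6 genes above 0, 1586 had 1, 435 had 2, 110 had 3, 92 had 4, 57 had 5 and 12 had 6, and the limit on the vFB3 genes removed 2 cells. Just inside the cut, the 90 FB5 cells with 4 genes held Kcnj8 at 483.5 CPM and Pdgfra at 1745.7 CPM. Just outside, the 110 cells with 3 genes held Kcnj8 at 191.1 CPM and Pdgfra at 701.3 CPM. These 110 cells were a mixture: 40 of them fell into the same cluster as most FB5 cells, 37.3% of the 110 held a Kcnj8 UMI, and 25.5% held a UMI of the vFB3 gene P2rx1.

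Of the 10383 genes with at least 200 UMIs in the library, 497 (4.79%) were at least 2 times higher in FB5 cells and 1009 (9.72%) were at 0.5 of the level or less, and the median ratio was 1.02. Both marks gave the same side of 1 for all 497 of the higher genes and for 1007 of the lower ones, and 369 and 783 genes were past the fold in both. The counts of each gene list below are set against these shares of all genes, 4.79% higher and 9.72% lower. At the ends of the range, 40 genes were at least 10 times higher and 164 were at least 10 times lower.

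Both subunits of an ATP-sensitive potassium channel were among the 25 highest genes. Kcnj8, the pore subunit of that channel, lies on chromosome 6 at 142564837 to 142571614 (mm10, minus strand). Abcc9, its regulatory sulphonylurea receptor subunit, is the neighbouring gene at 142587862 to 142702315 on the same strand. Kcnj8 per FB5 cell ran from 0 to 18.9 UMIs per 10000 with a median of 5.20, whereas the median of the other cells was 0 and their highest value 21.0. It was pooled at 562.1 CPM in FB5 cells and 8.92 CPM elsewhere, 63.0 times higher (56.2 to 70.8). With every cell thinned to 5000 UMIs, 82.9% of FB5 cells and 1.92% of other cells still held a Kcnj8 UMI. Abcc9 followed the same pattern, at 254.9 and 4.17 CPM, 61.2 times higher (51.7 to 72.8). The ranges of single cells overlapped for both genes, since some FB5 cells had none and some other cells had many.

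The sequences of the Kcnj8 and Abcc9 promoters are shown because these neighbours were high in the same cells, and that of Sox6 because this rule gene was seen in most FB5 cells. They are from RefSeq on GRCm38.p6, each on the minus strand and written 5′ to 3′, with the start site at base 251. Capitals mark GGAATG, the letters searched for TEAD factors.
Kcnj8, chr6:142571565-142571864: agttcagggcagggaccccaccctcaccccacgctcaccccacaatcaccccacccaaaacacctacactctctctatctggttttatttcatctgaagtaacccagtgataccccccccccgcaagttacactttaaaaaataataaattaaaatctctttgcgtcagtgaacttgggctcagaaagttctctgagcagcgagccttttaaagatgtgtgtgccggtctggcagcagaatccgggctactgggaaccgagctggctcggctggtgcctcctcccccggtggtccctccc
Abcc9, chr6:142702225-142702524: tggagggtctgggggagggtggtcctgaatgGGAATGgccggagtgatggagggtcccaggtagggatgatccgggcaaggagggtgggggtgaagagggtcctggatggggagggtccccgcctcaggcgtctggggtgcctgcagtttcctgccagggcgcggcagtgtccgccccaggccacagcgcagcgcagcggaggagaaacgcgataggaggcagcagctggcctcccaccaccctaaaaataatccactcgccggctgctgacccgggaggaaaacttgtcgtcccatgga
Sox6, chr7:116038695-116038994: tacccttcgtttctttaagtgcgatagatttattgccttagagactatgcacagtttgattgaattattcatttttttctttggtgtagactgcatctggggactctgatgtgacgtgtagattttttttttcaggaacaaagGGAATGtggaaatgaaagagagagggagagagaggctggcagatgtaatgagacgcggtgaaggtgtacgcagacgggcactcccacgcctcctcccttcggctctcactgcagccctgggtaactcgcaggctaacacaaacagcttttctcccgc
The TEAD letters began at base 32 in the Abcc9 promoter and at base 144 in the window shown for Sox6, and that of Kcnj8 held none. Sox6 has 6 windows in the table, of which 4 held no match and 1 other held CATTCC, the same letters on the other strand, at base 119. Of the 25 highest genes, 17 had a promoter there and 4 of these held GGAATG on either strand (23.5%, 6.81 to 49.9%), namely Abcc9, Sox6, Ptpn18 and Emid1. It was in 16.6% of all 27025 genes with a promoter. The 17 genes have 28 windows and all genes 32851, so the number of windows per gene differed between these shares. The forkhead letters TGTTTAC were in 0 of the 17 and in 4.05% of all genes, the SOX letters CCATTGT in 0 and 4.15%, and the GLI letters TGGGTGGTC in 0 and 0.289%. These are matches of letters in windows of 300 bases, not binding sites.

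Sv2b, a synaptic vesicle glycoprotein, had the largest ratio of the genes with at least 200 UMIs. It was at 129.3 CPM in FB5 cells and 1.25 CPM elsewhere, 103.3 times higher (77.1 to 140.7), and was seen in 67.3% against 0.912% of cells. Bean1 followed at 84.5 times, the tetraspanin Tspan13 at 80.7 times and the phospholipase Pla1a at 66.8 times. Tspan13 was the most widely seen of these, in 90.6% of FB5 cells and 2.00% of the others. The other genes among the 25 highest were Palmd (47.7 times), Inhbb, the activin beta B subunit (45.5 times), Rerg (39.5 times), the adhesion molecule Alcam (39.4 times), Tmem158 (34.3 times), Ednrb (33.8 times), Trp53i11, Hs3st6, Marc1, Casq2, Col4a5, Ptpn18, Emid1, Nrtn, Adam11, Gng2 and Kcnab1, with Bmp7 and Sox6 of the rule itself. The last of them, the potassium channel beta subunit Kcnab1, was 13.9 times higher. Casq2, which stores calcium in the sarcoplasmic reticulum of muscle, was 23.4 times higher, though the cluster led by Actc1 and Cnn1 held 82.0 CPM against 91.6 CPM in FB5 cells. In the cluster led by Slco2a1 and Itga8, Marc1 was at 51.6 CPM against 54.8 CPM in FB5 cells, and Gng2 at 48.2 against 81.7 CPM. Nrtn, a ligand of the GDNF family, was 16.5 times higher.

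**Figure D1:**
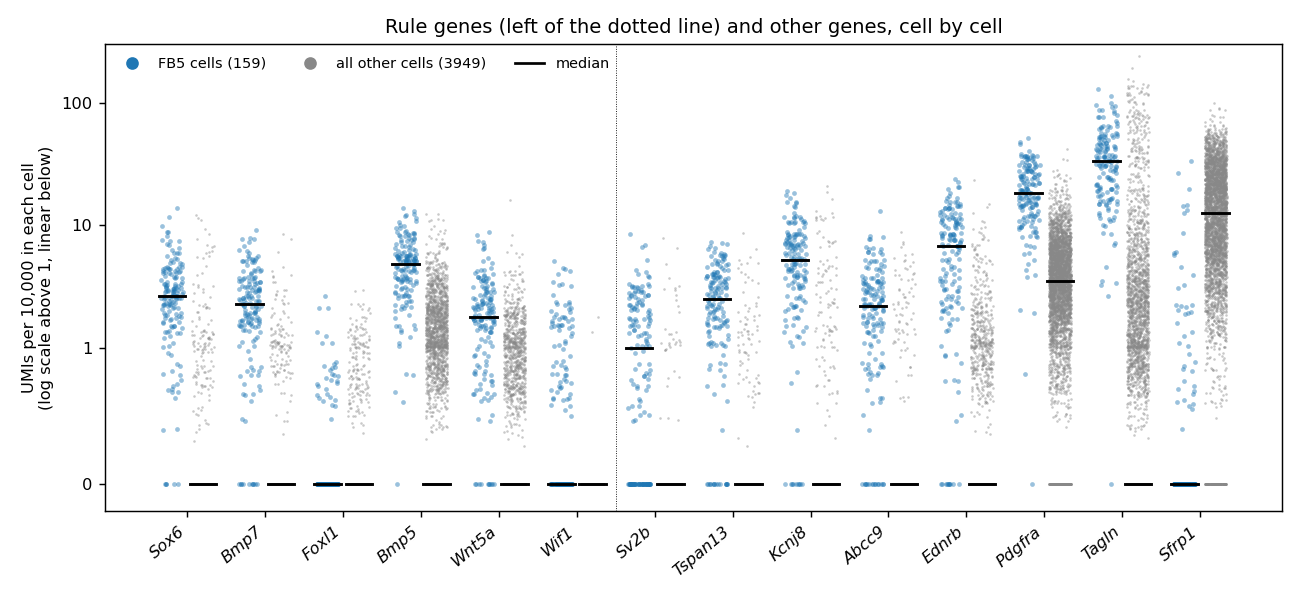
UMIs per 10000 in each cell for the 6 rule genes and for Sv2b, Tspan13, Kcnj8, Abcc9, Ednrb, Pdgfra, Tagln and Sfrp1, on an axis that is linear near 0 and logarithmic above. Blue points are the 159 FB5 cells, grey points the other cells and bars the medians, and most FB5 cells stand above the grey median for Kcnj8 (5.20 against 0) and Pdgfra (18.4 against 3.49) and below it for Sfrp1 (0 against 12.5).

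The 23 leading genes that were not in the rule were picked for being seen in FB5 cells, so their number per cell is a description only. An FB5 cell held a median of 16 of them, from 0 to 22, and 152 of 159 cells (95.6%) held at least 10. Other cells held a median of 0, and 48 of 3949 (1.22%) held at least 10. When all cells were clustered, 153 of the 159 FB5 cells (96.2%, 92.0 to 98.6%) fell into 1 cluster of 205 cells, at each of 3 resolutions. Of the other 48 cells with at least 10 of the leading genes, 47 were in that cluster too. The 6 FB5 cells that fell elsewhere held a median of 1.5 of these genes, and Kcnj8 was at 10.2 CPM in them. They are FB5 cells by the rule only: Sox6 was at 41 CPM in them, and 83.3% held a Foxl1 UMI. Their markers of the villus fibroblasts vFB1-2 summed to 4723.8 CPM, against 4085.6 CPM in the cells that the rule did not choose.

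The cluster held 52 cells that the rule did not choose, 40 of them with 3 of the 6 genes. Their median depth was 8840 UMIs, and they held Kcnj8 at 636.2 CPM, Pdgfra at 1659.5 CPM and Sox6 at 278.3 CPM, close to the FB5 levels. They held Wnt5a at 54.4 CPM and Wif1 at 6.28 CPM, below the FB5 levels, which the rule itself sets because it divided this cluster. These cells counted among the other cells in every ratio above. Without them Bean1 had the largest ratio of these, 835.9, followed by Palmd at 605.1 and Sv2b at 562, and Kcnj8 was 277.6 times higher, while the numbers of higher and lower genes were 505 and 1011. This comparison was added after seeing the data. Other settings gave lower ratios for the leading genes. With every cell thinned to 5000 UMIs before the choice, Sv2b was 31.0, Kcnj8 28.6, Tspan13 29.8 and Palmd 13.9 times higher, and with 5 marker genes asked Bean1 was 33.5 times higher.

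Over the 10383 genes the profile of FB5 cells correlated with that of these 52 cells at Pearson's r = 0.974 on log2(CPM + 10), and 59 genes differed by 2 times or more. This r is across genes of 1 library, which are not independent replicates. Among the other clusters, the nearest was one led by Tex14, Sertm1 and Vegfc (r = 0.925, 650 genes), and the farthest was one led by Vtn, Tinagl1 and Ndufa4l2 (r = 0.857, 1207 genes). The cluster led by Cd81, Cilp and Ackr4 was almost as far (r = 0.858, 1072 genes). 

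**Figure D2:**
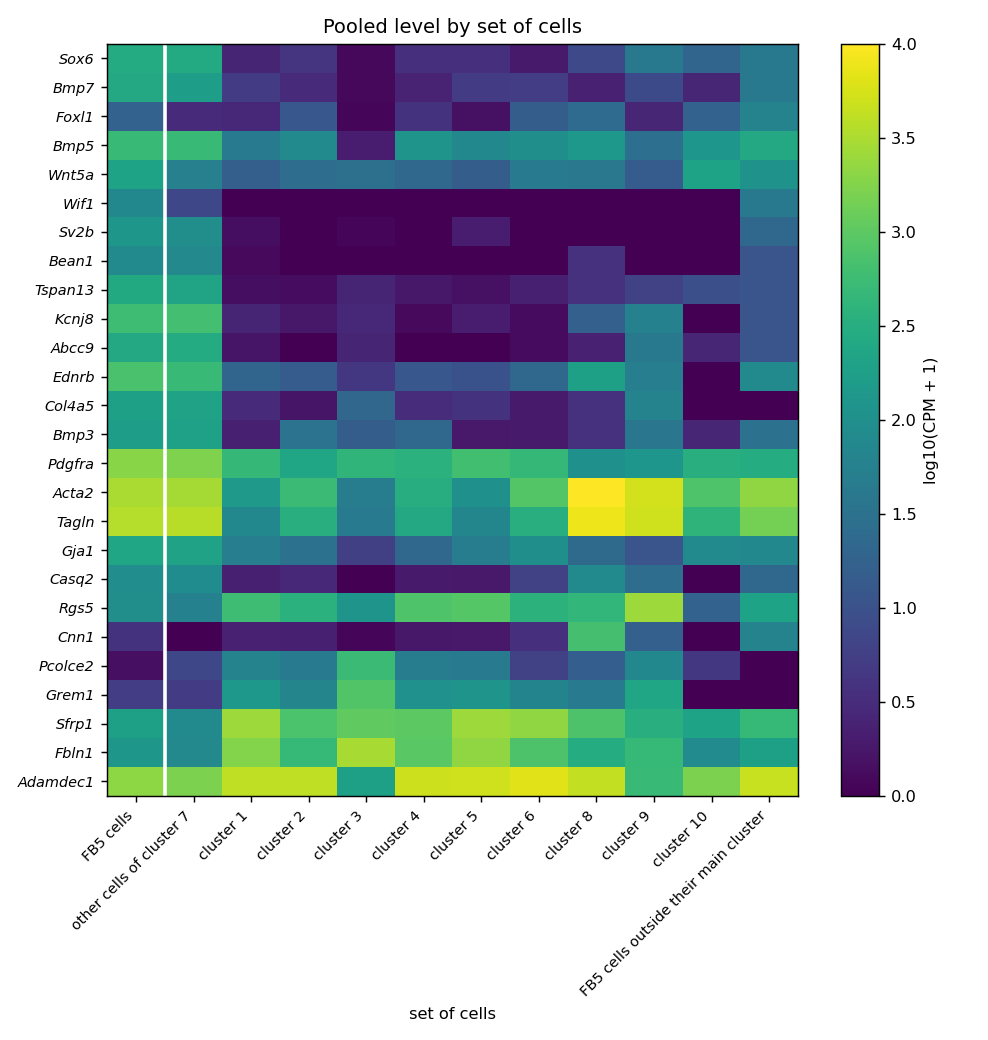
Levels of 26 genes, as log10(CPM + 1), in FB5 cells, in the other cells of the same cluster (cluster 7), in the remaining clusters and in the 6 FB5 cells outside cluster 7. FB5 cells and their cluster share the high values of Kcnj8 (562.1 and 636.2 CPM), whereas Tagln is higher still in cluster 8 (7972.7 CPM) and Wnt5a is as high in cluster 10 (208.1 CPM).

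Of 17 genes known from subepithelial fibroblasts that the rule did not use, 8 were at least 2 times higher and 4 at 0.5 or less, with a median ratio of 1.46. Pdgfra, the receptor whose high level is widely used to mark these cells, ran from 0 to 51.0 UMIs per 10000 in FB5 cells with a median of 18.4, against a median of 3.49 and a highest value of 41.8 elsewhere. It was pooled at 1972.9 and 404.8 CPM, 4.87 times higher (4.71 to 5.04). Ednrb, an endothelin receptor, was at 701.9 and 20.8 CPM, and the secreted peptide gene Enho was 6.31 times higher. F3, the tissue factor, was 4.65 times higher, the epidermal growth factor family ligand Nrg1 3.92 times, Sox9 3.41 times, the plasminogen activator Plat 2.76 times and Wnt5b 2.23 times, though Wnt5b was at 0.600 times among cells with at most 5% mitochondrial UMIs. The 4 low members were the Wnt inhibitor Frzb (0.130 times), the matrix protein Postn (0.150 times), the adhesion molecule Ncam1 (0.154 times) and the Notch ligand Dll1 (0.347 times).

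The BMP ligands outside the rule were not uniformly high. Of 6 compared, only Bmp3 was past the fold upwards, at 167.6 against 15.8 CPM, 10.6 times higher (9.29 to 12.1). Gdf6 was at 0.0869 of the level elsewhere. Bmp2 was 1.85 times higher, and Bmp4 was at 535.7 and 541.6 CPM, a ratio of 0.989 (0.931 to 1.05). Among 23 BMP receptors, antagonists and targets, 4 were higher and 6 lower. The higher ones were 2 antagonists, Nbl1 (4.05 times) and Chrd (3.03 times), and 2 target genes, Id1 (3.47 times) and Id2 (2.98 times). Id1 was at 33.5 CPM in FB5 cells but at 146.9 CPM in the cluster led by Vtn and Tinagl1 and 63.6 CPM in the cluster led by Slco2a1 and Itga8. It was 4.78 times higher in M columns and 2.43 times in F columns.

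Grem1, the BMP antagonist of the crypt base and submucosa, was among the 15 lowest genes. FB5 cells held 9 Grem1 UMIs, 4.25 CPM, against 236.4 CPM elsewhere, a ratio of 0.0180 (0.00821 to 0.0341). A Grem1 UMI was seen in 3.14% of FB5 cells and 40.2% of others. Grem1 was at 811.4 CPM in the cluster led by Cd81, Cilp and Ackr4, and at 0 CPM in the cluster led by Slco2a1 and Itga8. Chrdl1 (0.0828 times), Id4 (0.135 times), Bambi (0.343 times) and Smad7 (0.355 times) were low as well.

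Of 9 Wnt ligands, R-spondins and secretion genes, 2 were higher and 5 lower, with a median ratio of 0.202. Wnt4 was higher, at 352.6 against 41.4 CPM, 8.53 times (7.82 to 9.29), with a median of 3.11 UMIs per 10000 in FB5 cells and 0 elsewhere. It was at 526.3 CPM in the cluster led by Slco2a1 and Itga8, above the FB5 level. Rspo1, an R-spondin that amplifies Wnt signals, had 0 UMIs in FB5 cells and 611 elsewhere, which puts it at least 9.82-fold lower with 3 UMIs as the floor over all FB5 cells. Rspo1 was also at 0 in the clusters led by Slco2a1 and Itga8 and by Vtn and Tinagl1. Rspo2 was at 0.0823, Wnt2b at 0.113, Rspo3 at 0.149 and Wnt9a at 0.202 of the level elsewhere.

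Of 5 secreted Wnt inhibitors outside the rule, 4 were at 0.5 or less and none was higher. Sfrp1 was pooled at 184.1 CPM in FB5 cells and 1498.9 CPM elsewhere, a ratio of 0.123 (0.111 to 0.136), and 27.7% of FB5 cells and 95.8% of others held a UMI. Dkk2 was at 0.259 and Igfbp4 at 0.318, and Dkk3 had a ratio of 1.13. Of 16 Wnt receptors and targets, Ror2 (a Wnt5a receptor, 2.52 times), Fzd2 (2.25 times) and Tcf7 (2.04 times) were higher and 4 were lower, among them Apcdd1 (0.0960 times) and Fzd1 (0.182 times). The target gene Axin2 had a ratio of 0.568.

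Of 15 Hedgehog pathway genes and Fox factors, 7 were at 0.5 or less and 1, Foxf2 (2.32 times), was higher. The co-receptors Gas1 (0.0553 times) and Boc, the ligand-binding inhibitor Hhip (0.151 times) and the target gene Gli1 (0.334 times) were low, whereas Ptch1 had a ratio of 0.939 (0.845 to 1.04). Of 6 Notch genes 4 were lower and none was higher.

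Among 34 growth factors and receptors, 4 were higher and 14 lower. Inhba, an activin subunit like Inhbb, was 9.17 times higher (104.3 against 11.4 CPM), and Vegfa, the main angiogenic factor, 2.31 times higher (26.0 against 11.2 CPM). Vegfd was at 0.0409 and Vegfc, the lymphatic growth factor, at 0.323 of the level elsewhere. Vegfc was at 40.1 CPM in FB5 cells and 244.0 CPM in that nearest cluster, led by Tex14, Sertm1 and Vegfc, but clusters 1 and 6 held 41.2 and 41.3 CPM, with a like value in cluster 5, close to the FB5 level. Fgf7 (0.0770 times) and Fgf10 (0.191 times), which act on epithelial cells, were low. Fgf9 had too few UMIs in the library for the comparison, 107 in FB5 cells and 79 in all others, and stood 28.1 times higher (20.8 to 38.1). Pdgfrb was seen in every one of the 4108 cells, and its ratio was 1.07. That included every cell of the cluster led by Cd81, Cilp and Ackr4, where it was at 273.0 CPM. Whether cells without a Pdgfrb UMI had been left out beforehand was not tested, so both values are a description only.

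**Figure D3:**
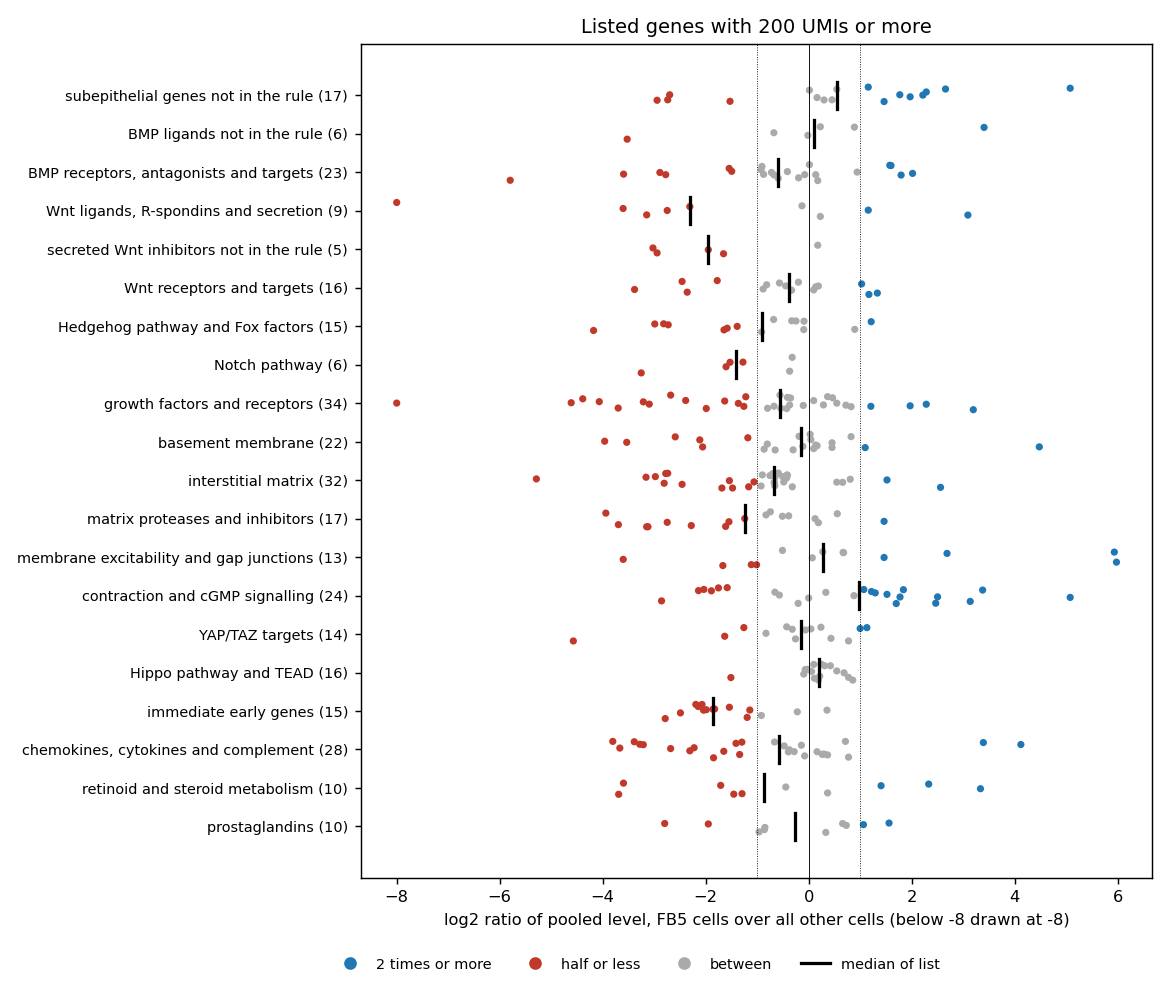
Log2 ratio of FB5 cells to other cells for each gene of 20 lists, with 1 point per gene, a black bar at each list's median and genes with 0 UMIs in FB5 cells drawn at the floor of the axis. The list of contraction and cyclic GMP genes has the highest median ratio of the 20 (1.97) and that of Wnt ligands and R-spondins the lowest (0.202).

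Contractile and cyclic GMP genes had a median ratio of 1.97, with 12 of 24 higher and 6 lower. Tagln, an actin-binding protein of smooth muscle and myofibroblasts, had a median of 33.3 UMIs per 10000 in FB5 cells and 0 in others, and was pooled at 3624.0 and 411.9 CPM, 8.80 times higher (8.56 to 9.04). Acta2, the smooth muscle actin, was 5.67 times higher, Myl9 5.53 times, Myh11 3.42 times and Mylk 2.87 times. Ednra, the other endothelin receptor, was 10.4 times higher (377.6 against 36.2 CPM). The low members included genes of mature muscle, Cnn1 (0.227 times), Lmod1 (0.297 times) and Actg2 (0.334 times), but with 3 marker genes sufficient for the choice these were 1.51, 1.30 and 1.26 times higher. Without the 6 FB5 cells outside the main cluster, a setting added after seeing the data, Cnn1 had no UMI in FB5 cells and Lmod1 and Actg2 were at 0.0623 and 0.113 of the level elsewhere. The 6 smooth muscle markers summed to 339.8 CPM in FB5 cells and 198.5 CPM elsewhere. Most of the FB5 sum was Myh11 (219.9 CPM) and Des (96.8 CPM). In the cluster led by Actc1 and Cnn1, Tagln was at 7972.7 CPM and Acta2 at 9868.7 CPM, above the FB5 levels, and Actc1 had 0 UMIs in FB5 cells. Myh11 (2233.5 CPM) and Mylk (1386.4 CPM) were also above the FB5 levels there. In the cluster led by Vtn and Tinagl1, Acta2 (5359.8 CPM), Myh11 (919.2 CPM) and Mylk (495.9 CPM) were above them as well.

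Of 13 genes of excitability and gap junctions, 4 were higher and 4 lower. Kcnj8 and Abcc9 led them, followed by Gja1, the gap junction protein connexin 43, at 6.44 times (235.5 against 36.6 CPM) and the calcium channel Cacna1d at 2.76 times. The potassium channel subunit Kcns3 (0.0824 times) and the sodium channel Scn7a (0.315 times) were low. Etv1, a transcription factor of interstitial cells of Cajal, was 8.07 times higher (204.4 against 25.3 CPM), but the defining genes of those pacemaker cells were nearly absent, with 4 Kit UMIs and 3 Ano1 UMIs in all FB5 cells.

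In the basement membrane list 2 of 22 genes were higher and 6 lower. Col4a5, a type IV collagen chain, was 22.3 times higher (184.1 against 8.26 CPM), and its partner chain gene Col4a6, with under 200 UMIs, stood 28.8 times higher (20.7 to 40.4). The laminin gene Lama4 was 2.14 times higher, and Fbln1 (0.0864 times) and Col15a1 (0.240 times) were low. In the interstitial matrix list 2 of 32 were higher, Col12a1 (5.90 times) and Ogn (2.87 times), a share near the 4.79% of all genes, and 12 were lower, against 9.72%. Col1a1 (0.446 times), Col3a1 (0.311 times), Dcn (0.344 times), Eln (0.112 times) and Mfap5 (0.0256 times) were among the latter. Of 17 proteases and inhibitors 1 was higher, also near the share of all genes, and 9 were lower.

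The chemokine, cytokine and complement list held 2 higher and 13 lower of 28 genes, of which the higher share was near the 4.79% of all genes and the lower one above 9.72%. Ccl7, a monocyte chemokine, was 17.4 times higher but in only 20.1% of FB5 cells, and Il34, a ligand of the macrophage receptor Csf1r, was 10.5 times higher and in 83.0%. Il34 was higher still in the cluster led by Slco2a1, Itga8 and P2rx1, at 194.4 CPM against 167.6 CPM in FB5 cells, and was at 124.4 CPM in the cluster led by Vtn, Tinagl1 and Ndufa4l2. The complement genes C3 (0.0787 times) and C4b (0.103 times) and the chemokine Ccl2 (0.108 times) were low, and Cxcl12 had a ratio of 1.71. Of 10 retinoid and steroid genes, the retinol carrier Rbp4 (10.1 times) and the retinoic acid enzymes Aldh1a1 (5.03 times) and Rdh10 (2.65 times) were higher, and 5 were lower, among them the glucocorticoid-activating enzyme Hsd11b1 (0.0827 times). Rbp4 was 14.4 times higher in F columns and 6.07 times in M columns. Of 10 prostaglandin genes, the synthases Ptgis (2.95 times) and Ptgs1 (2.09 times) were higher, and the receptors Ptgfr (0.144 times) and Ptger4 (0.259 times) were lower.

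Other higher genes also reached the FB5 level in a cluster that the rule did not choose. In the cluster led by Slco2a1 and Itga8, Rdh10 was at 407.6 CPM against 342.7 CPM in FB5 cells, Ptgs1 at 302.7 against 140.2 CPM and Vegfa at 58.5 against 26.0 CPM. In the cluster led by Actc1 and Cnn1, Nrg1 was at 82.0 against 24.5 CPM, Foxf2 at 122.4 against 99.1 CPM and Myl9 at 2884.4 against 1470.7 CPM. Crim1 was at 532.2 CPM in the cluster led by Vtn and Tinagl1, against 169.0 CPM.

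Of 14 YAP/TAZ target genes, 2 were higher and 3 lower in FB5 cells, against 4.79% and 9.72% of all genes, and the median ratio was 0.898. The higher ones were Amotl1 (2.19 times) and Crim1 (2.00 times). Cyr61 had a ratio of 0.802 and Ctgf of 0.563. Of 16 Hippo pathway genes 1, Tead2 (0.351 times), was past the fold. Lats2 was at 55.2 CPM in FB5 cells and 53.5 CPM elsewhere, and Lats1 at 17.5 and 14.1 CPM. These 3′ reads need not lie in the deleted exons, so they do not check the knockout.

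Of 15 immediate early genes, which respond to stress and to tissue dissociation, 12 were at 0.5 or less and none was higher, with a median ratio of 0.276. Fos was at 270.9 and 1235.0 CPM, Egr1 at 0.243 and Jun at 0.282 of the level elsewhere, and Dusp1 had a ratio of 1.28. The low level was shared with several clusters. These were the cluster led by Slco2a1 and Itga8, with Fos at 190.9 CPM, cluster 6, with Fos at 288.0 CPM, and the nearest cluster, led by Tex14, Sertm1 and Vegfc, where Fos was at 107.4 CPM, Egr1 at 81.4 CPM against 234.6 CPM in FB5 cells, and Jun at 75.3 CPM against 159.5 CPM.

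Among the remaining genes of the 15 lowest, Pcolce2, an enhancer of procollagen processing, had 1 UMI in FB5 cells and 6120 elsewhere, a ratio of 0.00339 (8.6e-05 to 0.0189). Igfbp6 was at 0.0199, Shisa3 at 0.0257, Cd248 at 0.0302 and Cd55 at 0.0324 of the level elsewhere, and Arhgap15, Gpc3, Nkain4, Plxdc2, Sulf2 and Serpinf1 lay between 0.0475 and 0.0652. Some of these were as low in the cluster led by Slco2a1 and Itga8: Shisa3 and Cd248 at 1.72, Cd55 at 5.16 and Nkain4 at 3.44 CPM. The others named here were above the FB5 level there. In the cluster led by Cd81, Cilp and Ackr4, Pcolce2 was at 541.3 and Igfbp6 at 665.8 CPM. All 6 FB4 markers were lower, with 0 UMIs of Pi16, 1 of Cd81 and 2 of Ackr4, and their summed level was 739.1 against 2093.1 CPM. Of the FB5 sum, 717.4 CPM was Dpt. The sum was 5545.8 CPM in the cluster led by Cd81, Cilp and Ackr4. Of the other clusters, only those led by Actc1 and Cnn1 (458.5 CPM) and by Slco2a1 and Itga8 (80.8 CPM) were below FB5 cells. Of 4 vFB1-2 markers, 3 were lower, and Adamdec1 had a ratio of 0.563.

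The 9 epithelial markers summed to 0.944 CPM in FB5 cells, with 8 at 0, and to 0.364 CPM elsewhere, with 5 at 0. The 6 endothelial markers summed to 3.30 CPM, with Pecam1, Cdh5 and Prox1 at 0, and to 15.7 CPM elsewhere, with Pecam1 at 0. The 7 immune markers summed to 56.6 CPM against 39.0 CPM elsewhere, of which 50.5 CPM was Lyz2, with Ptprc, Cd52 and Cd3e at 0. Cd3e was at 0 elsewhere too. The 5 proliferation markers summed to 0.472 CPM against 4.01 CPM elsewhere, and the 4 glial markers to 2.83 against 3.91 CPM. Low sums of these lists were thus shared by the whole library. Of the mural cell markers, Cspg4 was 3.28 times higher, Rgs5 (0.184 times) and Ndufa4l2 (0.159 times) were lower, and Higd1b, with under 200 UMIs, was 23.7 times higher (12.6 to 44.8) on 24 UMIs in FB5 cells and 21 elsewhere. Higd1b was at 27.6 CPM in the cluster led by Vtn and Tinagl1, above the 11.3 CPM of FB5 cells.

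FB5 cells also had more mitochondrial UMIs, with a median of 5.79% against 4.84%, although the authors had removed cells above 7%. Over 6% were 64 FB5 cells (40.3%, 32.6 to 48.3%) and 12.4% of the others, and 34.6% of the unchosen cells of the same cluster and 48.0% in the cluster led by Actc1 and Cnn1. Among cells at or below 5%, the rule found 30 of 2277 cells (1.32%). Cells with Xist and a Y-linked UMI together, which can be doublets, were 4.40% of FB5 cells and 2.76% of others. The part of depth, mitochondrial share and doublets in the results was not tested beyond the alternative settings given at the end.

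Several genes varied among FB5 cells far beyond counting error. The variance beyond counting, as a squared coefficient of variation, was 9.82 for Sfrp1, 9.16 for Fbln1 and 7.31 for Isg15, an interferon-induced gene, against a median of 0.0543 over 2138 genes. Sfrp1 was seen in 44 cells. Of the Fos UMIs, 25.1% were in the 6 cells outside the main cluster, as were 29.3% of the Fmo2 and 28.4% of the Aspn UMIs, and 1 cell held 21.3% of the Isg15 UMIs. Rgs5, Fmo2, Coq10b, Aspn, Gadd45g and Egr1 followed, with values from 5.46 down to 3.90.

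Clustering FB5 cells alone gave 3 subgroups, described by their leading genes. The grouping used the expression of these same cells, so levels and counts by subgroup are a description only. The number of subgroups was 2 at a lower and 5 at a higher resolution, so their borders are not firm. Subgroup 1 held 76 cells (47.8%) and was led by Fbln1 (11.8 times the other FB5 cells), Sfrp1 (10.5 times), Fos (5.17 times), Ifi27l2a (4.95 times) and Jun (4.25 times). Fbln1 was seen in 34.2% and Sfrp1 in 35.5% of its cells, and 5 cells held 52.0% and 55.9% of all their UMIs in FB5 cells. Subgroup 2 held 47 cells (29.6%) and was led by Akr1b8, Bpgm, Spry4, Odc1 and Tubb6, at 2.16 to 2.59 times. Subgroup 3 held 36 cells (22.6%) and was led by the activin subunit Inhbb (4.70 times), Amotl2 (3.78 times), Gas6, a ligand of TAM receptors (3.40 times), Col14a1 (3.26 times) and Crim1 (2.88 times). Of the 6 cells outside the main cluster 4 were in subgroup 1 and 2 in subgroup 3.

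The rule genes were spread over all 3, with Sox6 at 289.7, 308.6 and 239.3 CPM in subgroups 1, 2 and 3, and Bmp5 at 539.1, 441.3 and 442.8 CPM. The median depth was 11914, 13327 and 12891.5 UMIs, and the median mitochondrial share 5.90, 5.63 and 5.73%. The marks were not evenly spread: of the 70 M cells 55 were in subgroup 1, 5 in subgroup 2 and 10 in subgroup 3, and of the 89 F cells 21, 42 and 26. The subgroups and the marks therefore cannot be told apart fully. Ifi27l2a was at 847.7 CPM in M cells and 237.8 CPM in F cells of subgroup 1. It was at 1143.0 and 5.10 CPM in subgroup 2, where M held 5 cells, and at 557.2 and 2.88 CPM in subgroup 3. It thus differed by mark in each subgroup and, among F cells, by subgroup. Fbln1 and Sfrp1 were higher in subgroup 1 than in the other subgroups within both marks.

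Some YAP/TAZ targets were higher in subgroup 3. Of the 5528 genes with at least 50 UMIs in FB5 cells, 97 (1.75%) were at least 2 times higher there and 253 (4.58%) at 0.5 or less, and 4 of 11 targets were among the former and none among the latter. The subgroups were formed from the same values, and Amotl2 and Crim1 are among the leading genes of subgroup 3. The count is therefore a description only. Vegfc was at 130.1 CPM in subgroup 3, 21.1 CPM in subgroup 1 and 3.09 CPM in subgroup 2, and 66.7, 18.4 and 4.26% of their cells held a UMI. Within subgroup 3 it was at 170.3 CPM in M cells and 115.2 CPM in F cells, and within subgroup 1 at 23.0 and 17.6 CPM. Amotl2 was at 335.8 CPM, Crim1 at 342.1 CPM and Ctgf at 65.1 CPM in subgroup 3, each above the other subgroups. Cyr61 was not, at 258.1 CPM in subgroup 3, 375.2 CPM in subgroup 1 and 203.7 CPM in subgroup 2. Ankrd1 was too rare for the comparison, with 18 UMIs in FB5 cells, of which 17 were in 10 cells of subgroup 3, and 2 UMIs in all other cells of the library.

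**Figure D4:**
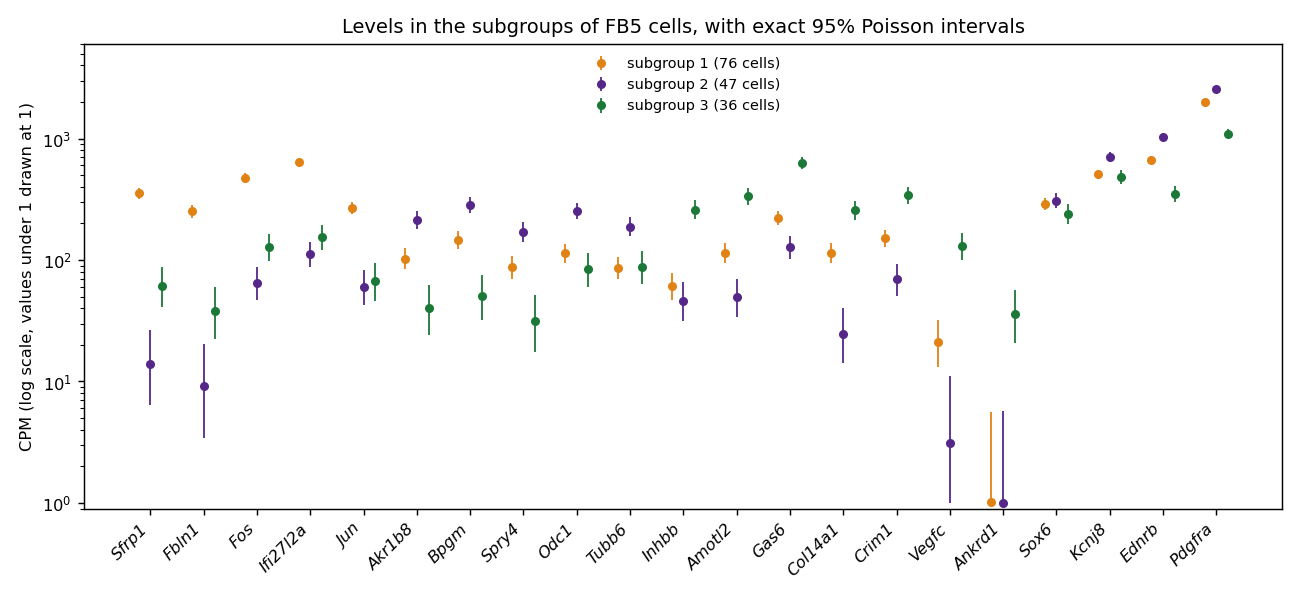
Levels of 21 genes, in CPM with exact Poisson 95% intervals, in the 3 subgroups of FB5 cells. Vegfc, Amotl2 and Inhbb are highest in subgroup 3 (130.1, 335.8 and 260.2 CPM), Fbln1 and Sfrp1 in subgroup 1 (252.5 and 354.1 CPM), and Sox6 is high in all 3.

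Of 14 subepithelial genes outside the rule, 7 were at 0.5 or less in subgroup 3 and none was higher. Pdgfra was at 1097.6 CPM in subgroup 3, 2016.8 CPM in subgroup 1 and 2549.2 CPM in subgroup 2. Ednrb was at 348.4, 660.9 and 1024.6 CPM in the same order, and Sox9 at 29.4, 105.6 and 84.9 CPM. Foxl1 was at 29.4 CPM in subgroup 3, 17.1 CPM in subgroup 1 and 7.72 CPM in subgroup 2, on 36 UMIs in all. Pdgfra in subgroup 3 still lay above the 404.8 CPM of the other cells of the library.

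Subgroup 1 had 110 genes (1.99%) at least 2 times higher than the other FB5 cells and 27 (0.488%) at 0.5 or less. Of 12 immediate early genes, 6 were among the higher ones (Fosb, Fos, Jun, Nr4a1, Egr1 and Zfp36). The vFB1-2 markers summed to 2750.1 CPM in subgroup 1, 1888.8 CPM in subgroup 2 and 1227.7 CPM in subgroup 3. Their part in the leading genes of subgroup 1 was not tested. The complement genes C3 and C4b and the steroid enzyme Hsd11b1, low in FB5 cells as a whole, were also higher in subgroup 1.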

How the data were processed

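Stromal cells sorted for Tomato were sequenced with the 10x Chromium 3′ v3 kit. Per the labels, reads were mapped to mm10 with Cell Ranger 3.0.2 and processed in Seurat 3.0.1; the study's methods name a slightly earlier Seurat release. The authors filtered cells (1000 to 6000 genes, at most 7% mitochondrial UMIs) and genes (3 or more cells), then left out clusters of immune and endothelial cells. The deposited values are the natural log of 1 plus UMIs scaled by the authors to 10000 per cell. All 13789523 nonzero values were whole multiples of 1 UMI within 0.001, so UMI counts were read back from them. The FB5 rule was applied to these counts, UMIs were summed over cells and expressed as CPM, and genes with at least 200 UMIs were compared with a 2-fold limit. Intervals are exact (Poisson, conditional binomial or Clopper-Pearson, 95%) and cover counting error only. Cells were clustered in Seurat 5.3.0 (R 4.3.3; 2000 variable genes, 30 components, resolution 0.5; within FB5 cells 1000, 10 and 0.8), with UMIs and mitochondrial percent regressed out. No doublet caller was run. The remaining steps used numpy 2.4.6, scipy 1.17.1 and pandas 2.3.3, and the ratio step was tested on simulated data.

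Gene positions are from GENCODE vM21 (GRCm38), where 18347 of 18619 symbols matched once. The FB5 rule and the gene lists were chosen with earlier results of these data known. The genes named are the rule genes, the 25 highest and 15 lowest ratios (at least 200 UMIs, seen in at least 30% of the cells on the higher side and 15 percentage points more often there), up to 4 genes each way of each list with its defining genes, the 10 most variable genes and 5 leading genes per subgroup, sex-linked genes left out. Genes named outside this rule (C3, C4b and Hsd11b1 in subgroup 1, the vFB1-2 sums) were singled out after their values were seen. Some genes of the lists are not reported here.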

Additional observations from a re-analysis of the deposited data

How the results depend on the processing

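The share of FB5 cells, 3.87%, moved to 6.28% (258 cells) with 3 marker genes sufficient, 1.68% (69 cells) with 5 asked, 1.84% (74 of 4014 cells) after thinning to 5000 UMIs and 1.32% (30 of 2277 cells) with at most 5% mitochondrial UMIs. The count of higher genes, 497, moved to 794 after thinning, 837 under the mitochondrial limit, 762 and 213 with at least 50 and 1000 UMIs asked of a gene, and 133 at 4 times. The count of lower genes, 1009, moved to 1674 after thinning, 1679 and 458 with at least 50 and 1000 UMIs, and 447 at 4 times. The other settings gave 382 to 579 higher and 693 to 1416 lower genes. Subgroups numbered 5 at resolution 1.2 and 2 at 0.4. Thinning and the mitochondrial limit left fewer FB5 cells, and the cause of the larger counts was not tested.

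Of 6145 ratios (469 to 475 genes in each of 13 settings, of which 2 were chosen after seeing the data; a ratio with no UMI in the other cells has no value) 4772 lay within the 95% interval of the reported ratio, 1359 lay outside it and 14 changed side. With 3 marker genes sufficient, the ratio was 1.12 for Slco2a1, 1.37 for P2rx1, 1.26 for Actg2, 1.16 for Angpt2, 1.51 for Cnn1, 1.01 for Jag1, 2.38 for Kcnk3, 1.30 for Lmod1 and 1.12 for Mmp10. It was 1.10 for Mmp10 with no limit on the vFB3 genes and 1.12 for Actg2 in M columns. Under the mitochondrial limit it was 1.17 for Actg2, 1.36 for Angpt2 and 0.600 for Wnt5b. No paired analysis was possible because the result comes from no test and rests on 1 library. Depth limits genes such as Foxl1 and Ankrd1, with 36 and 18 UMIs in FB5 cells.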
